A study of Mus musculus with 12 samples.

Results

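The genes described here carry metabotropic glutamate signals to the calcium store of cerebellar Purkinje cells. They are the 8 genes Itpr1, Homer3, Inpp5a, Gnaq, Ryr1, Itpka, Dagla and Atp2b2, found by symbol among 55401 gene identifiers, and all 8 passed the filter on low counts (19378 genes did). RNA was sequenced from the cerebellum of 12 mice, 1 library per mouse, in 3 groups of 4. WT DMSO mice were wild type, and Het DMSO and Het Hit 2 mice carried 1 expanded allele of Atxn1 (154Q/2Q), a knock-in that models the inherited ataxia SCA1 with the expansion in the gene's own locus. The 3 groups shared their schedule. Each mouse was injected intraperitoneally with dimethyl sulfoxide (DMSO), alone or carrying the compound Hit 2 at 25 mg/ml, from 18 weeks of age, on 5 days, and on 5 more after 2 days of rest, and the perfused tissue was taken at 20 weeks. No untreated mice and no wild-type mice given Hit 2 were analysed here.

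In Purkinje cells, glutamate from parallel fibres activates metabotropic receptors, which couple through the G protein alpha subunit Gq to phospholipase C beta. The enzyme splits a membrane lipid into inositol trisphosphate (IP3), which opens the IP3 receptor of the endoplasmic reticulum, and diacylglycerol, from which the endocannabinoid 2-arachidonoylglycerol is made. The calcium released drives long-term depression at the parallel fibre synapse, and mutations of several of these genes cause ataxia in people or mice. Purkinje cells hold far more of the type 1 IP3 receptor than other brain cells, whereas Gq is made in most cell types.

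Some libraries stood apart from the rest, and they touch every result below. Libraries are named by animal number. Depth was 15855751 to 45265719 reads assigned to genes. In Het DMSO library 409, mitochondrial transcripts made up 0.0795% of gene reads, against 1.85% to 2.81% in the other 11 libraries. In Het DMSO library 411, the granule cell marker Gabra6 was at 0.606 CPM (CPM are counts per library on a common scale, with TMM factors) and the Purkinje cell marker Pcp2 at 0.555 CPM. The lowest other library had 227 CPM of Gabra6 and 70.2 CPM of Pcp2. The labelled tissue, cerebellum, was thus not matched by its defining markers in 411. The summed level of 4 midbrain markers (Slc6a3, Pou4f1, Gata3 and Foxa1) was 94.3 CPM in 411, 11.7 CPM in Het Hit 2 library 410 and 7.79 CPM in Het Hit 2 library 430, and at most 2.11 CPM in the other 9. These 4 were picked from a list of 8 midbrain and diencephalon markers after values were seen. The sum of all 8 was 265 CPM in 411, 71.1 CPM in 410, 83.1 CPM in 430 and 41.8 to 68.5 CPM in WT. Th was at 7.06 CPM in 410 and 4.46 CPM in 430 beside 6.60 to 17.5 CPM in WT. WT libraries 425 and 426 were the only ones with high Xist, so sex was not balanced between the genotypes. Atxn1 itself, counted over both alleles, was at 161 ± 14.3 CPM in WT DMSO, 172 ± 11.7 CPM in Het DMSO and 165 ± 20.3 CPM in Het Hit 2 (SD, n = 4), which does not check the genotype labels because reads of the 2 alleles were not told apart.

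Compared per length, as read count scaled to exon length and library size (RPKM), the pathway covered a wide range of levels in WT cerebellum. Itpr1, the type 1 IP3 receptor, was the highest at 251 ± 7.84 RPKM (SD, n = 4), and over the 12 libraries its mean level lay above 99.7% of the genes tested. Atp2b2, the plasma membrane calcium pump PMCA2, followed at 117 ± 5.51 RPKM. Homer3, a postsynaptic scaffold that binds the IP3 receptor, was at 62.3 ± 3.82 RPKM, and Inpp5a, the phosphatase that removes the 5-phosphate of IP3, at 58.5 ± 1.104 RPKM. The WT libraries of Homer3 (58.0 to 66.8 RPKM) and Inpp5a (56.9 to 59.2 RPKM) overlapped, so these neighbours in the order were not separated. Gnaq, the Gq alpha subunit, was at 31.6 ± 1.26 RPKM and Dagla, the diacylglycerol lipase of the endocannabinoid branch, at 26.4 ± 0.339 RPKM. Itpka, the kinase that turns IP3 into inositol tetrakisphosphate, was at 18.2 ± 2.71 RPKM. The type 1 ryanodine receptor Ryr1, a calcium-triggered release channel of the same store, was the lowest at 8.17 ± 0.821 RPKM. The WT ranges of the other neighbours in this order did not overlap.

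Gnaq, the entry point of the pathway, differed least between the groups. It was at 204, 193, 186 and 198 CPM in WT libraries 413, 425, 426 and 431. In Het DMSO libraries 409, 411, 420 and 429 it was at 146, 195, 187 and 182 CPM. In Het Hit 2 libraries 410, 421, 422 and 430 it was at 180, 177, 189 and 191 CPM. The 3 groups overlapped, 4 of 8 Het libraries were below the lowest WT library, and library 411 held 100% of the WT mean of Gnaq where it held 4.47% to 5.93% of those of Itpr1, Homer3, Ryr1 and Itpka. The fitted log2 fold change was -0.14 ± 0.11 (SE) for Het DMSO and -0.08 ± 0.11 for Het Hit 2, each against WT.

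Homer3 was lower in most Het libraries. It was at 219, 200, 230 and 208 CPM in the WT libraries, in the order above. In Het DMSO it was at 224, 9.99, 152 and 133 CPM, and in Het Hit 2 at 85.4, 157, 189 and 149 CPM. Library 409 lay within the WT range and the other 7 Het libraries lay below it. The group means were 60.6% of WT in Het DMSO and 67.7% in Het Hit 2, with fitted log2 fold changes of -0.72 ± 0.59 and -0.56 ± 0.59 (SE).

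Itpr1, the release channel that IP3 opens, was also lower in most Het libraries. It was at 4405, 4727, 4688 and 4603 CPM in WT, a spread of 143.6 CPM (SD, n = 4). In Het DMSO it was at 4659, 273, 3504 and 2877 CPM, and in Het Hit 2 at 2011, 3703, 3921 and 3149 CPM. The 4 Het Hit 2 libraries were all below the 4 WT libraries, and in Het DMSO only 409 was not. The means were 61.4% of WT in Het DMSO and 69.4% in Het Hit 2. The fitted log2 fold changes were -0.70 ± 0.56 and -0.53 ± 0.56 (SE), so the standard errors were about as large as the differences.

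Ryr1 showed more overlap than Itpr1. Its WT libraries were at 159, 198, 189 and 169 CPM. The Het DMSO libraries were at 212, 7.97, 177 and 133 CPM, and the Het Hit 2 libraries at 94.8, 173, 179 and 134 CPM. Of the 8 Het libraries, 4 were below the lowest WT library and 1 (409) was above the highest. The group means were 74.3% and 81.2% of WT.

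The enzymes that remove IP3 were both lower in most Het libraries. Inpp5a was at 333, 321, 334 and 333 CPM in WT, at 329, 61.5, 246 and 208 CPM in Het DMSO and at 159.5, 260, 278 and 232 CPM in Het Hit 2. All 4 Het Hit 2 libraries and 3 of 4 Het DMSO libraries lay below the WT libraries. Itpka was at 37.1, 31.2, 36.8 and 26.8 CPM in WT, at 42.5, 1.77, 22.2 and 19.1 CPM in Het DMSO and at 10.1, 25.5, 28.8 and 20.7 CPM in Het Hit 2. Its groups overlapped, with 6 of 8 Het libraries below the lowest WT library and 409 above the highest. The value in 411 rests on 35 reads. Group means in Het DMSO and Het Hit 2 were 63.9% and 70.4% of WT for Inpp5a and 64.8% and 64.4% for Itpka.

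Dagla was the gene of the 8 whose Het libraries did not overlap with WT. It was at 154, 149, 152 and 152 CPM in WT, with an SD of 1.95 CPM (n = 4). In Het DMSO it was at 139.6, 69.6, 94.5 and 82.9 CPM, and in Het Hit 2 at 75.9, 104, 113 and 106 CPM. All 8 Het libraries were below all 4 WT libraries, including 409, where Itpr1, Homer3, Inpp5a, Ryr1, Itpka and Atp2b2 were within or above their WT ranges. The means were 63.7% and 65.7% of WT, with fitted log2 fold changes of -0.65 ± 0.20 for Het DMSO and -0.61 ± 0.20 (SE) for Het Hit 2.

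Atp2b2, which pumps calcium out of the cell, was at 1490, 1499, 1545 and 1381 CPM in WT. In Het DMSO it was at 1681, 808, 1197 and 1082 CPM, and in Het Hit 2 at 970, 1230, 1296 and 1181 CPM. All Het libraries but 409, which was above the WT range, were below the lowest WT library. The means were 80.6% and 79.1% of WT, and in 411 Atp2b2 held 54.6% of the WT mean where Itpr1 held 5.93%.

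**Figure D1:**
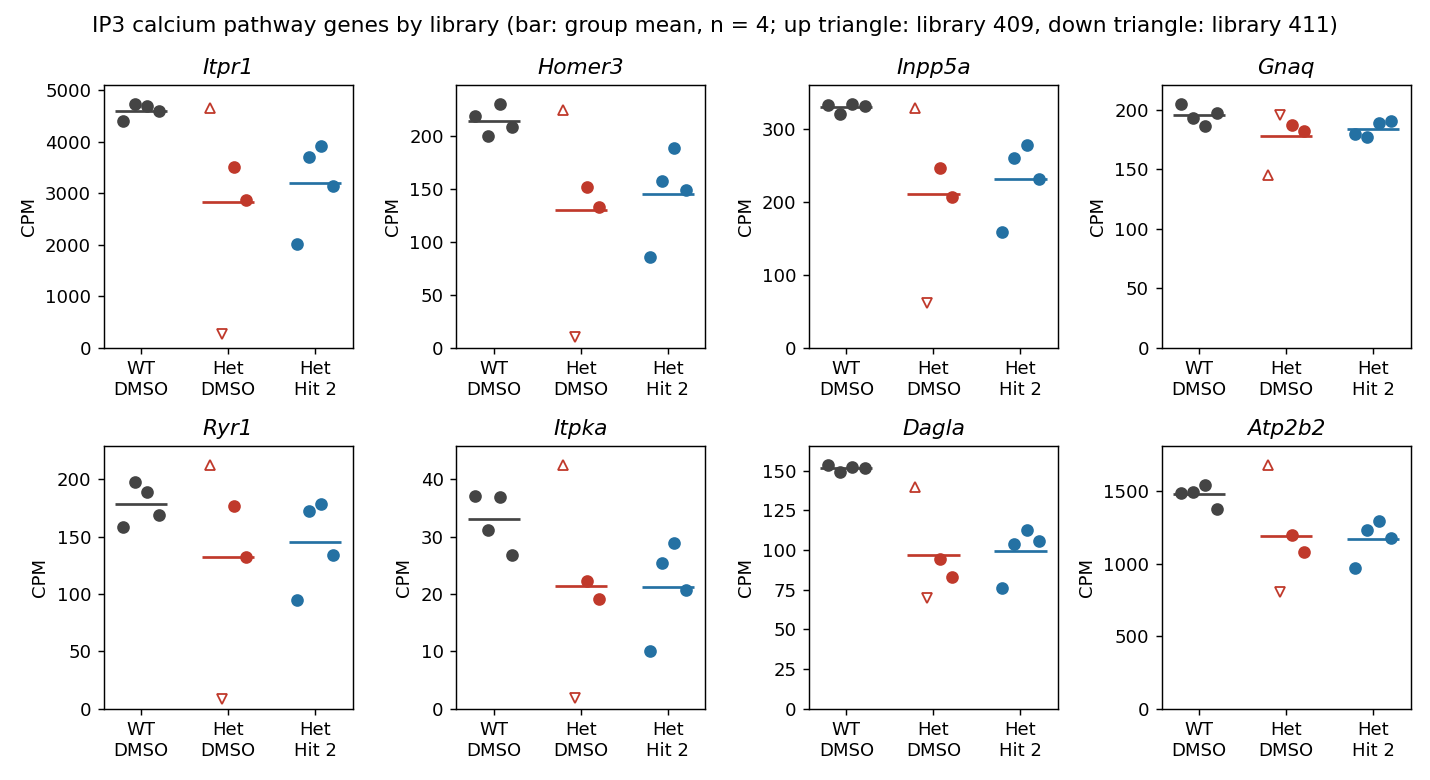
Level of each of the 8 pathway genes in each library, in CPM on linear axes starting at 0. Each point is 1 mouse (triangles: libraries 409 and 411) and each bar is a group mean of 4. Dagla is the only gene with all 8 Het points below the 4 WT points, and Gnaq stays within 146 to 204 CPM.

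No gene of the 8 passed the test across all genes (edgeR quasi-likelihood, Benjamini-Hochberg adjusted p under 0.05) in any comparison. For Het DMSO against WT DMSO the adjusted p ranged from 0.616 (Dagla, Inpp5a) to 0.783 (Ryr1), and 0.00516% of the genes tested (1 gene) passed. Dagla alone of the 8 had an unadjusted p under 0.05, as had 7.11% of all genes (2.34% with a lower level). For Het Hit 2 against WT DMSO 0.00516% of genes passed, every adjusted p of the 8 was 0.9999, and Dagla was again the only one with an unadjusted p under 0.05 (1.71% of all genes, 0.96% with a lower level). With the 8 Het libraries set together against WT, 0.0516% of genes passed. Dagla was at -0.63 ± 0.165 on the log2 scale (SE, adjusted p = 0.573) and the other 7 had adjusted p of 0.939 to 0.941. Dagla alone was below an unadjusted p of 0.05 there, where 3.79% of all genes were. In the fits without 409 and 411, 5 (Het DMSO), 6 (Het Hit 2) and 6 (both) of the 8 were lower than WT at an unadjusted p under 0.05, as were 3.76%, 5.57% and 5.36% of all genes. DESeq2 also called none of the 8, whereas limma with library weights called Dagla in each comparison with WT, and Atp2b2 for both Het groups.

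All 8 fitted fold changes were below 0 in each comparison with WT, where 44.2% (Het DMSO), 44.3% (Het Hit 2) and 44.8% (both) of all genes were below 0. The median of the 8 was -0.63 for Het DMSO, -0.52 for Het Hit 2 and -0.60 for both, beside 0.05, 0.02 and 0.03 over all genes tested. The Het DMSO median was -0.26 without library 411 alone and -0.92 without library 409 alone. These comparisons share the 4 WT libraries, so they are not separate evidence. Groups that did not overlap were found for Dagla in Het DMSO against WT (1 of 8, where 2.45% of all genes were lower without overlap). For Het Hit 2 against WT they were found for Itpr1, Homer3, Inpp5a, Dagla and Atp2b2 (5 of 8, background 3.42%), and for both Het groups against WT for Dagla (1 of 8, background 1.18%). With 409 and 411 left out, 6 of 8 were lower without overlap in Het DMSO against WT (background 9.12%) and 5 of 8 in both Het groups against WT (background 2.32%).

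Each gene was also compared alone by permuting the group labels (exact, two-sided, on log2 CPM), in 32 tests on all libraries, or 64 with those repeated without 409 and 411, not adjusted for their number. For Het Hit 2 against WT, p was 0.0286 for Itpr1, Homer3, Inpp5a, Dagla and Atp2b2, the smallest value that 4 against 4 libraries can give. Any gene whose groups do not overlap gets the smallest p. Such p-values therefore restate the counts without overlap above and are not further evidence. Of all genes, 3.42% were lower and 2.9% higher without overlap in this comparison. For Het DMSO against WT, Dagla had that p of 0.0286, and Inpp5a had an exact p of 0.0571. For both Het groups against WT, Dagla had an exact p of 0.00404, the smallest for 8 against 4. The exact p was 0.00808 for Inpp5a, 0.0121 for Itpr1, 0.0202 for Homer3, 0.0364 for Atp2b2 and 0.0485 for Gnaq. Itpka (permutation p = 0.0727) and Ryr1 (permutation p = 0.214) were not separated. Each p sets a group difference against those from relabelling the same libraries, 409 and 411 included where Het DMSO was compared. Without 409 and 411, Het DMSO (n = 2) against WT gave an exact p of 0.133 for Itpr1, Homer3, Inpp5a, Itpka, Dagla and Atp2b2. It was 0.267 for Gnaq and 0.4 for Ryr1. Both Het groups against WT then gave 0.00952 for Itpr1, Homer3, Inpp5a, Dagla and Atp2b2, the smallest for 6 against 4. It was 0.0191 for Itpka, 0.0476 for Gnaq and 0.152 for Ryr1.

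Hit 2 and vehicle were not told apart in the Het mice for any of the 8 genes. The fitted log2 fold changes of Het Hit 2 against Het DMSO lay between -0.03 (Atp2b2) and 0.18 (Itpr1), with adjusted p (edgeR) of 0.918 to 0.996 and exact permutation p of 0.743 to 0.971. No gene was called among the 19378 (percent called 0), and 1.55% (301 genes) had an unadjusted p under 0.05, none of them among the 8. Of the 8 differences, 2 (Itpka and Atp2b2) were below 0, as were 55.7% of all genes. DESeq2, limma with library weights and all other fits also called 0 genes here. The precision was low: the standard error of this difference was 0.56 for Itpr1, 0.59 for Homer3, 0.37 for Inpp5a, 0.62 for Ryr1 and 0.61 for Itpka, and 0.20 for Dagla and Atp2b2 and 0.11 for Gnaq. The sign of 5 of these differences (Itpr1, Gnaq, Ryr1, Itpka and Atp2b2) turned when libraries 409 and 411 were left out.

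Without libraries 409 and 411, 2 Het DMSO libraries remained and Dagla was the 1 gene of the 8 that passed. Dagla fell by 0.70 ± 0.10 on the log2 scale (SE, adjusted p = 0.0135, edgeR) in both Het groups against WT, where 0.607% of 20105 genes passed. Dagla also fell in Het Hit 2 against WT (log2 fold change -0.62, adjusted p = 0.0377, background 0.448%). In Het DMSO against WT it was at -0.78 with an adjusted p of 0.0881 (background 0.0895%). The others were, for both Het groups, at -0.54 (Itpr1, adjusted p = 0.275), -0.59 (Homer3, 0.266), -0.54 (Inpp5a, 0.149), -0.37 (Atp2b2, 0.111), -0.66 (Itpka, 0.409), -0.26 (Ryr1, 0.822) and -0.09 (Gnaq, 0.655). Leaving out 409 alone also gave a call for Dagla in both Het groups against WT (adjusted p = 0.0325). When 410 and 430, picked by the 4 midbrain markers, were left out as well, 5 genes passed in both Het groups against WT (Itpr1, Homer3, Inpp5a, Dagla and Atp2b2), among 244 genes in all. In that fit 4 passed in Het DMSO against WT (Itpr1, Homer3, Inpp5a and Dagla), among 114, and 1 in Het Hit 2 against WT (Dagla), among 67. This last choice of libraries was made after the data were seen. The share of all genes tested that passed is not given for that fit, so its counts have no background beside them.

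**Figure D2:**
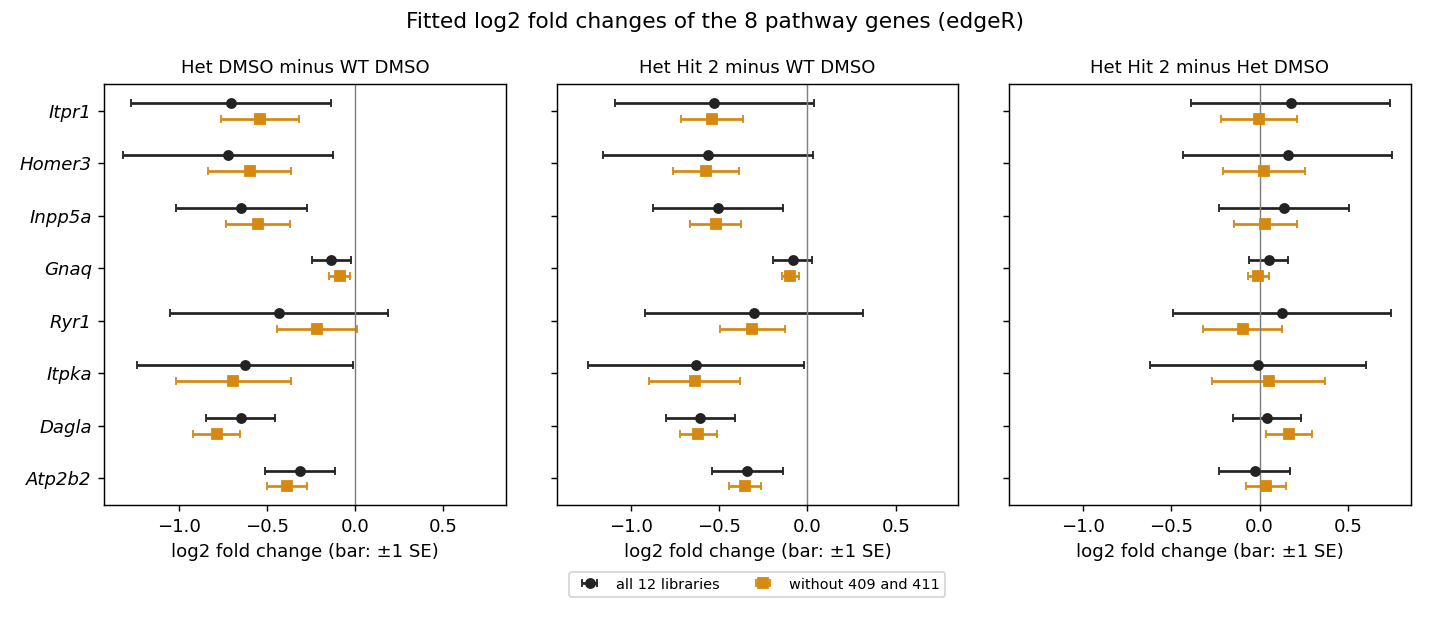
Fitted log2 fold change of the 8 genes (edgeR) in 3 comparisons, with bars of 1 SE. Black circles are fits on 12 libraries and orange squares fits without libraries 409 and 411. Against WT all estimates lie left of 0, and for Het Hit 2 against Het DMSO all estimates lie between -0.10 and 0.18.

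Homer3 and Inpp5a varied together over the libraries (Pearson r of log2 CPM 0.98 over 12 libraries and 0.99 over the 10 without 409 and 411), and Gnaq was less like Homer3 (r = -0.18 over 12 and 0.64 over 10). Their promoters are shown to compare the pair with the gene whose level differed least between the groups. RefSeq start sites in mouse build GRCm38.p6 gave windows of 250 bases before to 50 bases after the start for 6 of the 8 genes (9 windows), and none for Itpr1 and Dagla. The windows lie on the plus strand at chr8:70282749-70283048 (Homer3), chr7:139388859-139389158 (Inpp5a) and chr19:16132434-16132733 (Gnaq). Capitals mark GGGCGG, the core of the GC box, on either strand (CCGCCC).
Homer3: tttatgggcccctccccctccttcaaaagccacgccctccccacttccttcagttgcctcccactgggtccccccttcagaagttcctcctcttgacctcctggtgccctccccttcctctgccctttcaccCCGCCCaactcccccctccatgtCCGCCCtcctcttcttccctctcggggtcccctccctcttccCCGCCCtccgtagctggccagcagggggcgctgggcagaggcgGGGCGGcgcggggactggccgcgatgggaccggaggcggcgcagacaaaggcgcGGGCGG
Inpp5a: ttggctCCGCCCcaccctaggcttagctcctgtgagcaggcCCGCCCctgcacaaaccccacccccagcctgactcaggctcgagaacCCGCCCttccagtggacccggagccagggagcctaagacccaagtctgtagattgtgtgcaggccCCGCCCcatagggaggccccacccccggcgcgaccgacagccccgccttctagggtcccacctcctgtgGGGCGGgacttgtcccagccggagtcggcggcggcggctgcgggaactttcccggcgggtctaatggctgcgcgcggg
Gnaq: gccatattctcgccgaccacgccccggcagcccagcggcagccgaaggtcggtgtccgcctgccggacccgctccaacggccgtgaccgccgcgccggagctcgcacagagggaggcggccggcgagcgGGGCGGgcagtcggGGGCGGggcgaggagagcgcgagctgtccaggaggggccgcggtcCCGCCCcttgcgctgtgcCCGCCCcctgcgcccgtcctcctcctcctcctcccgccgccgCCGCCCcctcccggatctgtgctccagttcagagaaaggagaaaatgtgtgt
Each of these 3 windows holds the GC box core 5 times, so the count does not set Gnaq apart. The core occurs in 35.7% of 32851 mouse promoters of this length. A second Inpp5a window (chr7:139400244-139400543) has 0 matches, Itpka has 4, Ryr1 2, and the 3 windows of Atp2b2 3, 0 and 2. The motif TGAATGAA, bound by the repressor capicua, a partner of ataxin-1, is in none of the 9 windows on either strand (1.30% of all promoters hold it), and neither is its variant TGAATGGA (1.21%). AGGTCA, the core read by orphan nuclear receptors such as RORα, occurs in the Homer3 window only (16.3% of all promoters).

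Over pairs of the 8 genes, the 21 pairs without Gnaq had r of log2 CPM from 0.65 to 0.998 over the 12 libraries, and from 0.71 to 0.99 over the 10 without 409 and 411. The 7 pairs with Gnaq had r from -0.27 to 0.0024 over 12 libraries and from 0.32 to 0.73 over 10. These points share their libraries, and library 411 lies far from the rest. The genes outside the 8 most like their mean (their log2 CPM, each centred on its median, averaged over the 8 genes) over 12 libraries were Atp2a3 (r = 0.996), Prom2, Col18a1, St8sia5 and Grid2ip (r = 0.995 each), where the median gene had r = -0.05. Atp2a3 is a calcium pump of the endoplasmic reticulum. Over the 10 libraries they were Plekhd1 (r = 0.998), Arhgef33 (0.996), Atp2a3 (0.993), Dgkz (0.992) and Pcp2 (0.991), and Atp2a3 was in both groups of 5. Dgkz encodes a diacylglycerol kinase.

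Close relatives of the 8 genes showed no common direction. Of 13 paralogs (Itpr2, Itpr3, Homer1, Homer2, Gna11, Ryr2, Ryr3, Itpkb, Itpkc, Daglb, Atp2b1, Atp2b3 and Atp2b4), 0 passed the edgeR test in any comparison. Only Ryr3 had an unadjusted p under 0.05 in the comparisons with WT, and it was higher. The median log2 fold change of the 13 was 0.22 (Het DMSO), 0.03 (Het Hit 2) and 0.05 (both) against WT, with 4, 6 and 5 of the 13 below 0. These medians without 409 and 411 were 0.06, 0.02 and 2.209e-04. The share of Itpr1 in the summed RPKM of the 3 IP3 receptors was 94.3% to 95.3% in WT, 69.9% to 93.1% in Het DMSO and 91.0% to 93.2% in Het Hit 2. Every Het library was below every WT library, 409 included. The same held for the share of Dagla over Dagla and Daglb, which was 76.9% to 80.1% in WT, 65.5% to 73.6% in Het DMSO and 71.0% to 75.4% in Het Hit 2. Gnaq, whose own level hardly differed, made up 59.4% to 61.5% of Gnaq and Gna11 in WT, 40.9% to 58.9% in Het DMSO and 56.9% to 58.5% in Het Hit 2. Ryr1 made up 18.3% to 21.9% of the ryanodine receptors in WT, 1.34% to 17.8% in Het DMSO and 11.2% to 16.2% in Het Hit 2. The shares of Homer3, Itpka and Atp2b2 in their families overlapped between WT and Het libraries. Shares were computed for these 7 families only (Inpp5a has no paralog in the list), so they are a description without a test or a background.

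**Figure D3:**
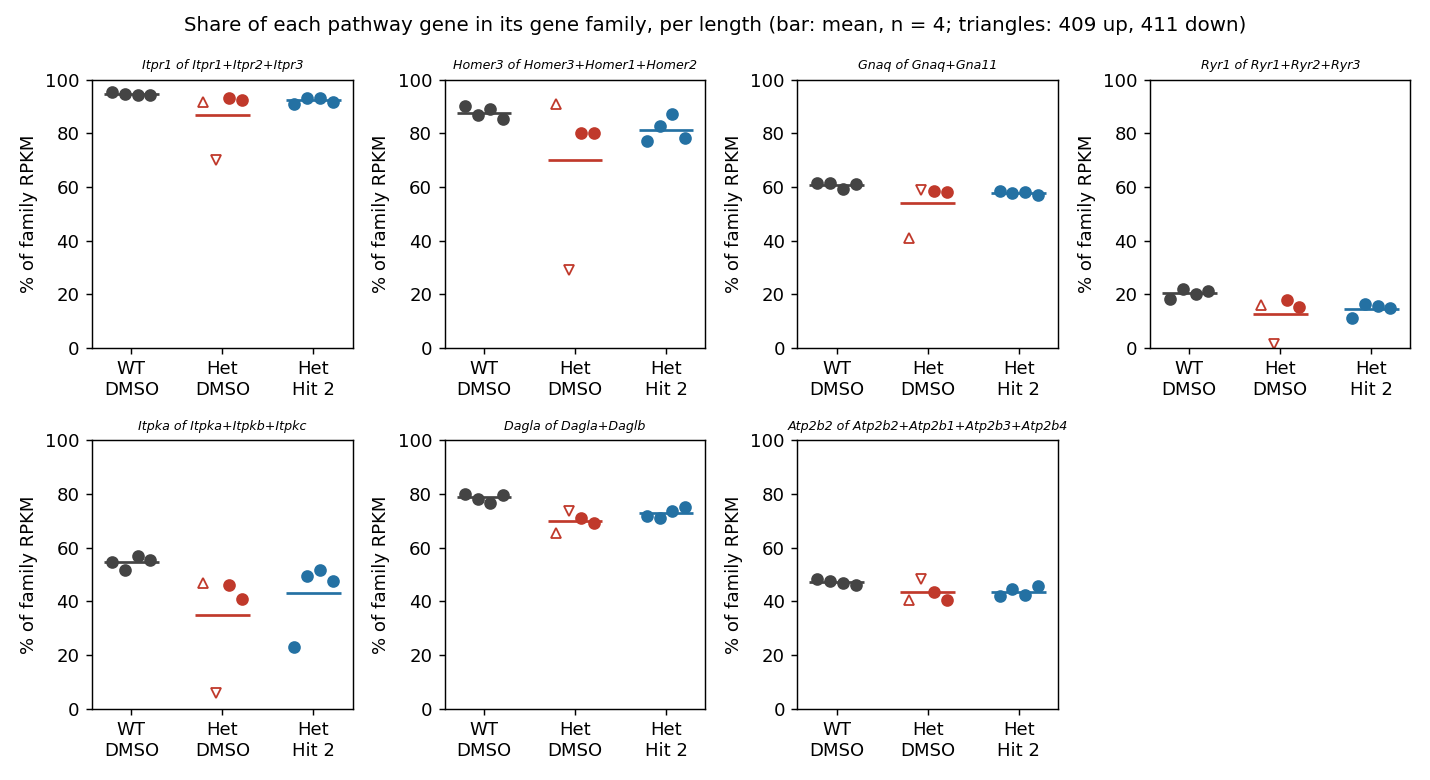
Share of each gene in the summed RPKM of its family, in percent, by library (points) with group means (bars, n = 4). For Itpr1, Gnaq, Ryr1 and Dagla all 8 Het libraries lie below the 4 WT libraries.

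Of the other genes of the pathway, 41 were listed by role, and 0 passed the edgeR test over all genes in any comparison. At an unadjusted p under 0.05, 7 were lower and 2 higher in Het DMSO against WT (background 2.34% lower and 4.77% higher). For Het Hit 2 against WT there were 1 lower and 2 higher (background 0.96% and 0.748%), and for both Het groups 3 lower and 2 higher (1.95% and 1.84%). The median of the 41 was -0.10, -0.12 and -0.09, and -0.15, -0.13 and -0.13 without 409 and 411. For Hit 2 against vehicle 1 was lower and 0 higher (background 0.8% and 0.753%), with a median of 0.01. Without 409 and 411, 1 passed in Het Hit 2 against WT (background 0.448%) and 2 in both Het groups against WT (background 0.607%), all lower.

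Among receptors and scaffolds (6 genes), 0 passed the edgeR test and 1 was lower at an unadjusted p under 0.05 in both Het groups against WT. Of the 6, 4 were below 0 there, with a median of -0.13 (range -0.57 to 1.34), and without 409 and 411 the median was -0.07 (range -0.53 to 0.34).

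Among G protein and phospholipase C genes (6 genes), Plcb3, a phospholipase C beta of Purkinje cells, had the smallest p in the comparisons of Het Hit 2 with WT. Plcb3 was at 49.4, 82.9, 82.3 and 74.0 CPM in WT. It was at 61.0, 18.3, 42.6 and 42.1 CPM in Het DMSO and at 31.0, 34.8, 33.8 and 28.0 CPM in Het Hit 2. All Het libraries but 409 were below the WT range. The log2 fold change was -1.18 ± 0.29 for Het Hit 2 against WT (SE, adjusted p = 0.9999, edgeR) and -0.996 ± 0.24 for both Het groups (adjusted p = 0.501). Without 409 and 411 it passed (edgeR adjusted p = 0.0143 for both Het groups). Plcb4, the other phospholipase C beta of Purkinje cells, was among the genes with the smallest p for Hit 2 against vehicle, at 0.32 ± 0.23 on the log2 scale (SE, adjusted p = 0.898, edgeR), and its sign turned without 409 and 411 (-0.07 ± 0.13).

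In the diacylglycerol branch (5 genes beside Dagla), all 5 were below 0 in both Het groups against WT, with a median of -0.36 (-0.19 without 409 and 411). None passed the edgeR test, and 1 was lower at an unadjusted p under 0.05.

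Among the enzymes of IP3 turnover beside Inpp5a and Itpka (5 genes), 3 were below 0 in both Het groups against WT, with a median of -0.09. Inpp1, which removes phosphate from inositol bisphosphate, was among the smallest p for Hit 2 against vehicle, at 0.35 ± 0.18 (SE, adjusted p = 0.898, edgeR), and at 0.05 ± 0.10 without 409 and 411.

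Among IP3 receptor partners and store genes (11 genes), Ryr3, the type 3 ryanodine receptor, had the smallest p in the comparisons with WT but did not pass the test. Ryr3 was at 83.2, 79.3, 76.7 and 46.9 CPM in WT, at 107, 176, 98.5 and 69.6 CPM in Het DMSO and at 125, 104, 101 and 102 CPM in Het Hit 2. All Het libraries but 429 were above the WT range. The log2 fold change was 0.62 ± 0.23 (SE, adjusted p = 0.939 by edgeR) for both Het groups, opposite in sign to Ryr1. It was 0.40 ± 0.16 without 409 and 411, and then 0.22 ± 0.21 in Het DMSO against WT. Car8, a protein that binds the type 1 IP3 receptor, was below all 4 WT libraries in all 8 Het libraries, at 707 to 855 CPM in WT, 12.4 to 536 CPM in Het DMSO and 293 to 674 CPM in Het Hit 2 (background 1.18%). Its log2 fold change for both Het groups was -0.85 ± 0.59 (SE, adjusted p = 0.939 by edgeR), and -0.64 ± 0.19 without 409 and 411 (adjusted p = 0.243). Atp2a3, a calcium pump of the store, was below the WT range in 7 of 8 Het libraries and above it in 1, with a mean of 67.7% (Het DMSO) and 66.4% (Het Hit 2) of WT. Car8 and Atp2a3, and Calb1 and Pvalb among the buffers, were picked out after their values were seen, and each was lower in Het. Others of the same lists went the other way or overlapped. Itpr2 was above the highest WT library in 5 of 8 Het libraries, and Ryr2 in 4 (with 1 below the lowest). Stim1 (3 above, 2 below) and Slc8a1 (2 above, 3 below) lay on both sides. The median of the 11 was -0.05 (-0.10 without 409 and 411). Atp2a2, a calcium pump of the store picked out after its values were seen, passed lower in both Het groups without 409 and 411 (edgeR adjusted p = 0.0473). It was at 1184 to 1276 CPM in WT and 842 to 1056 CPM in those 6 Het libraries.

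Among calcium extrusion and buffer genes (8 genes), the exchanger Slc8a3 (NCX3) was higher in all 8 Het libraries than in all 4 WT libraries. Slc8a3 was at 68.5, 81.5, 79.4 and 59.1 CPM in WT, at 153, 127, 117 and 100.3 CPM in Het DMSO and at 97.8, 91.4, 98.6 and 85.8 CPM in Het Hit 2. Its log2 fold change for Het DMSO against WT was 0.79 ± 0.15 (SE, adjusted p = 0.191 by edgeR), and it was 0.37 ± 0.15 for Het Hit 2 against WT. Higher without overlap were 1.94% of all genes in Het DMSO, 2.9% in Het Hit 2 and 0.619% in both Het groups, each against WT. Calb1, the calcium buffer calbindin of Purkinje cells, was lower in all 8 Het libraries than in all 4 WT libraries, at 372.7 to 427 CPM in WT, 35.6 to 299.7 CPM in Het DMSO and 161 to 340.1 CPM in Het Hit 2, where 1.18% of all genes were lower without overlap. Its log2 fold change for both Het groups was -0.86 ± 0.40 (SE, adjusted p = 0.939 by edgeR), and -0.57 ± 0.17 without 409 and 411 (adjusted p = 0.266). Pvalb, the buffer parvalbumin, was below the WT range in 7 of 8 Het libraries, with a mean of 69.1% (Het DMSO) and 76.3% (Het Hit 2) of WT. For Hit 2 against vehicle Slc8a3 was at -0.41 ± 0.15 (SE, adjusted p = 0.898, edgeR), and all 4 Hit 2 libraries were below all 4 Het DMSO libraries, as in 0.392% of genes. The difference without 409 and 411 was -0.22 ± 0.13. Atp2b4, a plasma membrane calcium pump like Atp2b2, was at -0.37 ± 0.23 in that comparison (SE, adjusted p = 0.898, edgeR), and its sign turned without 409 and 411 (0.10 ± 0.18). Of the 8 extrusion and buffer genes, 5 were below 0 in both Het groups against WT, with a median of -0.10 (-0.18 without 409 and 411).

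Purkinje cell markers were lower beside the 8 genes, and most granule cell and astroglia markers were lower by less (counts below). All 12 Purkinje markers listed were below 0 against WT in each comparison. Their medians were -0.61 (Het DMSO), -0.49 (Het Hit 2) and -0.51 (both). Of the 12, 0 passed the edgeR test (2, 3 and 4 at an unadjusted p under 0.05). Without 409 and 411, 0, 2 and 3 of the 12 passed, all lower (6, 11 and 10 at an unadjusted p under 0.05). Of all genes in those fits 0.0895%, 0.448% and 0.607% passed, and 3.76%, 5.57% and 5.36% were lower at an unadjusted p under 0.05. Their summed level was 2040 to 2237 CPM in WT, 547 to 1903 CPM in Het DMSO and 1043 to 1774 CPM in Het Hit 2, and markers under 1 CPM occurred in library 411 only (2 of 12). In bulk tissue, fewer Purkinje cells and less RNA per Purkinje cell cannot be told apart. The score of the 8 genes was 0.19 to 0.30 in WT. It was 0.30, -2.44, -0.11 and -0.33 in Het DMSO and -0.73, -0.05, 0.06 and -0.19 in Het Hit 2, so 409 was the Het library within the WT range. The Purkinje marker score of 409 was below those of the WT libraries (0.27 to 0.45).

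Of the listed markers of other cell types, 0 passed the edgeR test in any comparison over the 12 libraries. Against WT, granule cell markers were below 0 in 11 (Het DMSO), 12 (Het Hit 2) and 12 (both) of 12. Their medians were -0.29, -0.22 and -0.24. Astroglia markers were below 0 in 9, 10 and 10 of 10 (medians -0.19, -0.18 and -0.14), and interneuron markers in 6, 7 and 6 of 10. In both Het groups against WT, 0 of 10 microglia and 0 of 10 oligodendrocyte markers were below 0 (background 44.8%). At an unadjusted p under 0.05, 1 astroglia marker was lower in each comparison with WT and 1 microglia marker was higher in Het DMSO against WT. In the fits without 409 and 411, 1 astroglia marker passed lower in Het Hit 2 and in both Het groups against WT. Of 12 granule cell markers, 8, 12 and 12 were then below 0 (Het DMSO, Het Hit 2 and both), with medians of -0.03, -0.24 and -0.14. Lower at an unadjusted p under 0.05 were 0, 4 and 2 of these 12. So were 2, 3 and 4 of 10 astroglia markers and 0, 2 and 3 of 10 interneuron markers. The background was 3.76%, 5.57% and 5.36%. The summed level of 12 granule cell markers was 7255 to 8324 CPM in WT, 329 to 11240 CPM in Het DMSO (lowest in 411, highest in 409) and 4960 to 8355 CPM in Het Hit 2. That of 10 oligodendrocyte markers was 1804 to 3435 CPM in WT, 1301 to 6656 CPM in Het DMSO and 1319 to 5579 CPM in Het Hit 2. Microglia markers (10 genes) ranged from 80.0 to 114 CPM, 91.2 to 218 CPM and 81.4 to 158 CPM in the same order. Astroglia markers (10 genes) were at 3694 to 4103 CPM in WT, 2684 to 3203 CPM in Het DMSO and 2908 to 3087 CPM in Het Hit 2. Aldoc, which zebrin-positive Purkinje cells also express (1085, 617 and 613.5 CPM on average), and Slc1a3 (758, 512 and 576 CPM) made up most of that difference. In Het DMSO and Het Hit 2, Gdf10 was at 42.7% and 50.2% of its WT mean and Hopx at 71.0% and 79.5%. The other 6 astroglia markers (Slc1a2, Gfap, Aldh1l1, Gja1, Aqp4 and S100b) were at 84.9% to 104% of WT. All 8 Het libraries were below all 4 WT libraries for Aldoc, Slc1a3 and Gdf10 (for Gdf10 by little, with 103.2 CPM the highest in Het and 103.3 CPM the lowest in WT), and 3 of 8 were for Hopx. Summed interneuron markers (10 genes) were at 864 to 934 CPM, 695 to 909 CPM and 762 to 844 CPM. Endothelial markers (6 genes) spanned 176 to 269 CPM over all groups, choroid plexus markers (8 genes) 10.6 to 1941 CPM, blood markers (5 genes) 3.62 to 67.0 CPM and forebrain markers (8 genes) 5.35 to 40.3 CPM. The part of these cell types and of the libraries that stand apart in the lower levels of the 8 genes was not tested.

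**Figure D4:**
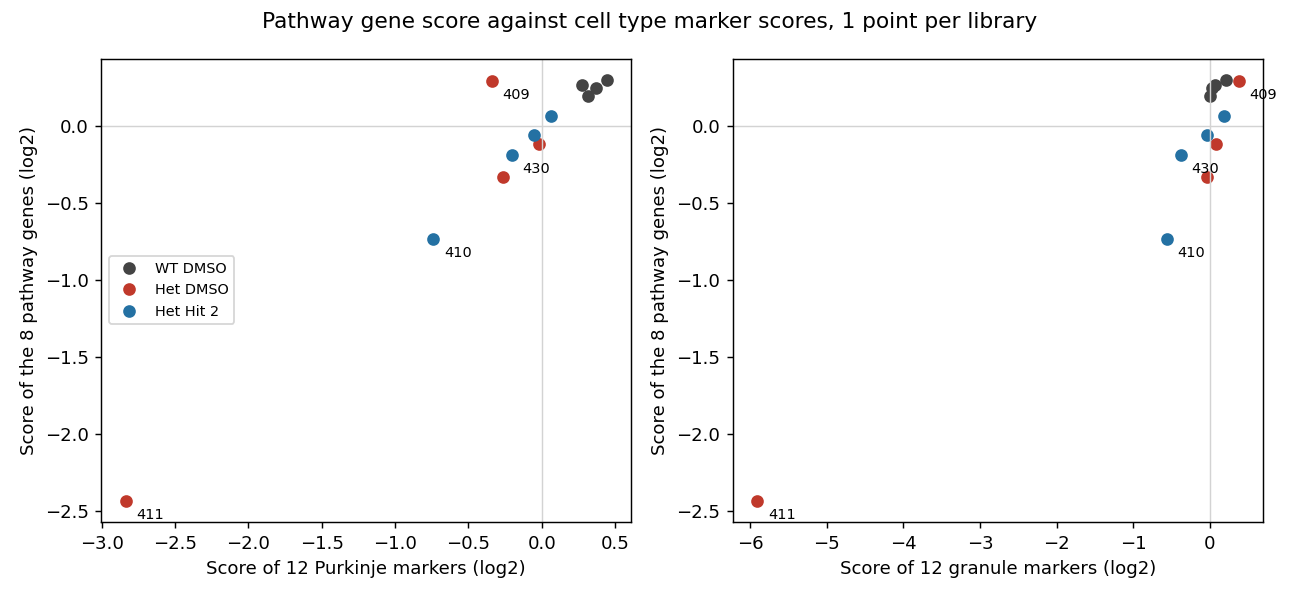
Score of the 8 genes (vertical, log2) against the scores of 12 Purkinje markers (left) and 12 granule cell markers (right), 1 point per library, coloured by group. WT libraries lie between 0.19 and 0.30 on the vertical axis, and library 411 lies at -2.44.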

How the data were processed

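Cerebellar RNA of 12 mice (4 per group) was depleted of ribosomal RNA and sequenced as pairs of 100 bases, per the labels' protocols. The authors deposited raw read counts for each gene in the layout of STAR, per the file headers. The submitters' processing notes name STAR 2.7.10a, FastQC 0.11.9 and the builds GRCm39 and mm39, and the annotation release is not given in the sources used here. Counts of the strand that held most gene reads were used, and 44.7% to 54.6% of a library's reads without a gene stayed out of library sizes and tests. Symbols, exon lengths and overlaps came from GENCODE M21 (GRCm38, 55141 of 55401 identifiers matched), so no gene coordinates of these files' build are printed. Itpr1, Gnaq, Ryr1 and Atp2b2 overlap small genes on their own strand there, and how such reads were counted adds uncertainty. Depth was 15855751 to 45265719 gene reads, and each value of the 8 genes rests on 35 to 200655 reads. 

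Counts were tested with edgeR 4.0.16 in R 4.3.3 (filterByExpr, TMM, quasi-likelihood, 1 coefficient per group over 12 libraries, Benjamini-Hochberg over 19378 genes, threshold 0.05), after a check on simulated data. CPM used TMM library sizes, and log2 CPM a prior count of 2. Single genes were compared with exact two-sided permutation tests. Alternatives were RLE factors, DESeq2 1.42.0, no filter, unstranded counts, limma 3.58.1 with library weights, a sex covariate (Xist above 100 CPM), only the groups compared, libraries left out, and each library left out in turn. The 8 genes and all lists were chosen with earlier results of these data known. Named beside the 8 were, per comparison, the 4 pathway genes with the smallest p and those past the threshold, and the 5 genes most like the mean of the 8. Some items that this rule names are not reported here. Sequencing batches are not given in the sources used here, so batch was not tested. Animals were not paired.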

Additional observations from a re-analysis of the deposited data

Results flagged for a closer look

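Inpp5a in WT DMSO library 425 was at 321.1 CPM, set apart from the other 3 WT libraries, of which the nearest was at 332.8 CPM. The gap was 0.878 of the whole range of the group, above Dixon's 95% critical value for 4 samples. It was the only such value among the 24 groups of 4 libraries checked for the 8 genes, where chance gives about 1 in 20, and the difference is small beside that to the Het libraries other than 409.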

How the results depend on the processing

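The 8 genes had a median below 0 against WT in every fit run, from -0.63 to -0.54 (Het DMSO), -0.53 to -0.28 (Het Hit 2) and -0.60 to -0.41 (both) when no single library was left out, and from -0.92 to -0.26, -0.62 to -0.28 and -0.74 to -0.41 over all fits. The Het DMSO extremes were without 409 (-0.92) and without 411 (-0.26). The number of genes called moved with the settings. For Het DMSO against WT (1 gene), it was 43 with DESeq2, 98 with library weights, 18 without libraries 409 and 411, 0 with only the groups compared, 114 without 409, 410, 411 and 430 (chosen after the data were seen), and 0 to 9 with each library left out in turn. For Het Hit 2 against WT (1 gene), it was 24 with DESeq2, 4 with no filter, 2 with unstranded counts, 221 with library weights, 0 with the sex covariate, 90 without 409 and 411, 54 with only the groups compared, 67 without the 4 libraries, and 0 to 14 with each library left out. For both Het groups against WT (10 genes), it was 56 with DESeq2, 343 with library weights, 1 with the sex covariate, 122 without 409 and 411, 244 without the 4 libraries, and 1 to 38 with each library left out. Of the 8 genes, library weights called 1, 1 and 2 in these comparisons (Dagla in each, and Atp2b2 in the third), leaving out 409 and 411 called 0, 1 and 1, and leaving out the 4 libraries called 4, 1 and 5. Leaving out each library in turn called 0 to 1 of the 8 in both Het groups against WT. The cause was not tested.

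For Het Hit 2 against Het DMSO no fit called a gene (301 at an unadjusted p under 0.05 with edgeR), and log2 fold changes turned sign. With library weights they were -0.017 for Gnaq, 0.30 for Itpka and 0.091 for Atp2b2. Without 409 and 411 they were -4.6e-04 for Itpr1, -0.0077 for Gnaq, -0.10 for Ryr1, 0.052 for Itpka and 0.035 for Atp2b2. With only the groups compared Itpka was at 0.022. Without the 4 libraries they were -0.014 for Gnaq, 0.40 for Itpka and 0.15 for Atp2b2. With each library left out in turn they ranged from -0.24 to 0.52 (Itpr1), -0.26 to 0.56 (Homer3), -0.20 to 0.43 (Inpp5a), -0.032 to 0.079 (Gnaq), -0.30 to 0.45 (Ryr1), -0.43 to 0.57 (Itpka), -0.12 to 0.27 (Dagla) and -0.21 to 0.18 (Atp2b2), with the lowest value of each gene but Gnaq without 411. No paired analysis was possible because animal numbers do not recur between groups. The lowest count behind a value of the 8 genes was 35 reads (Itpka in 411, whose depth was not the lowest).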
